A study of Mus musculus with 3 samples.

Results

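The collagen chains of mouse tumour stroma were followed across 3 Affymetrix arrays, which read biotin-labelled total RNA with probes grouped into probe sets. Members were all probe sets with exactly 1 gene symbol of the form Col, a number, the letter a and a number, and they came to 45 probe sets for 44 genes out of 22087 genes named in this way. The rule for members used symbols alone, but it was set with earlier results of these data known. The only gene with more than 1 probe set, Col5a1, was represented by the brighter, a choice that rests on measured values. All samples carried the genotype label Dicer1 +/-, heterozygous for the gene of the nuclease that cuts microRNA precursors, and the series title abbreviates the tumours as ASD, which the labels do not spell out. Cells were sorted live as negative for PECAM1, an endothelial surface protein, and negative for tdTomato, the fluorescent protein of the tumour gate, and the labels call them stroma. They are numbered 1, 2 and 3, and no age, promoter or Cre driver is given in the sources used here. Nothing in the labels says that they came from separate animals, so each SD, and any spread given, is that between these 3 preparations and may be technical. Dicer1 +/+ stroma was not analysed here, so no genotype comparison was made and no p-value was computed.

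Collagens are trimers of alpha chains wound around each other through repeats in which glycine recurs at regular steps, and each Col gene encodes an alpha chain. Fibrillar collagens form the tensile fibres of skin, tendon, bone and cartilage. Network collagens make sheets such as basement membranes, beaded collagen VI forms microfibrils around cells, and FACIT collagens (fibril-associated collagens with interrupted helices) sit on the surface of fibrils. Transmembrane collagens stay anchored in the cell surface. In tumours most fibrillar collagen is made by fibroblasts, while collagens II, IX, X and XI are known from cartilage.

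Values are log2 intensities as deposited, so a difference of 1 is 2-fold. A gene was called detected where its value exceeded that of 95% of the 1438 probe sets for smell, pheromone and taste receptors, genes not expected in stroma. This reference stood at 5.16, 5.11 and 5.20 on arrays 1, 2 and 3. Array medians were 5.35, 5.34 and 5.36. Probes differ in brightness, so each gene was compared only with itself across samples. All 9 measured fibroblast markers and all 7 leukocyte markers were detected on every array, and so were all 7 muscle markers. The share detected on every array was 60.5% among 20614 named genes other than collagens and those receptors. Pecam1 was also detected, at 8.02, 7.20 and 8.25 in samples 1, 2 and 3, although the gate was set against its protein. Of 9 endothelial markers 7 were detected on all arrays, beside the same 60.5%. Among them were the endothelial cadherin Cdh5 at 6.17, 6.75 and 7.81 and the transcription factor Erg at 7.11, 7.34 and 7.85. Leukocytes also make Pecam1, and the source of the signal was not tested.

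Of the 44 collagen genes 36 (81.8%) were detected on all 3 arrays, beside 60.5% of 20614 other named genes. By class these were 11 of 11 fibrillar, 6 of 9 network, 4 of 6 beaded, 8 of 9 FACIT and 2 of 4 transmembrane genes, and all 5 genes outside these classes. The 5 genes detected on no array were Col4a3 and Col4a6, chains of specialised basement membranes, Col6a4 and Col6a5 of the beaded class, and the FACIT gene Col19a1. Their means lay between 3.90 for Col19a1 and 5.04 for Col4a6. Col4a4 and Col17a1, a collagen of epithelial anchoring junctions, passed on 1 array each, and Col13a1 on 2. A value below the reference does not show that a gene is silent.

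**Figure D1:**
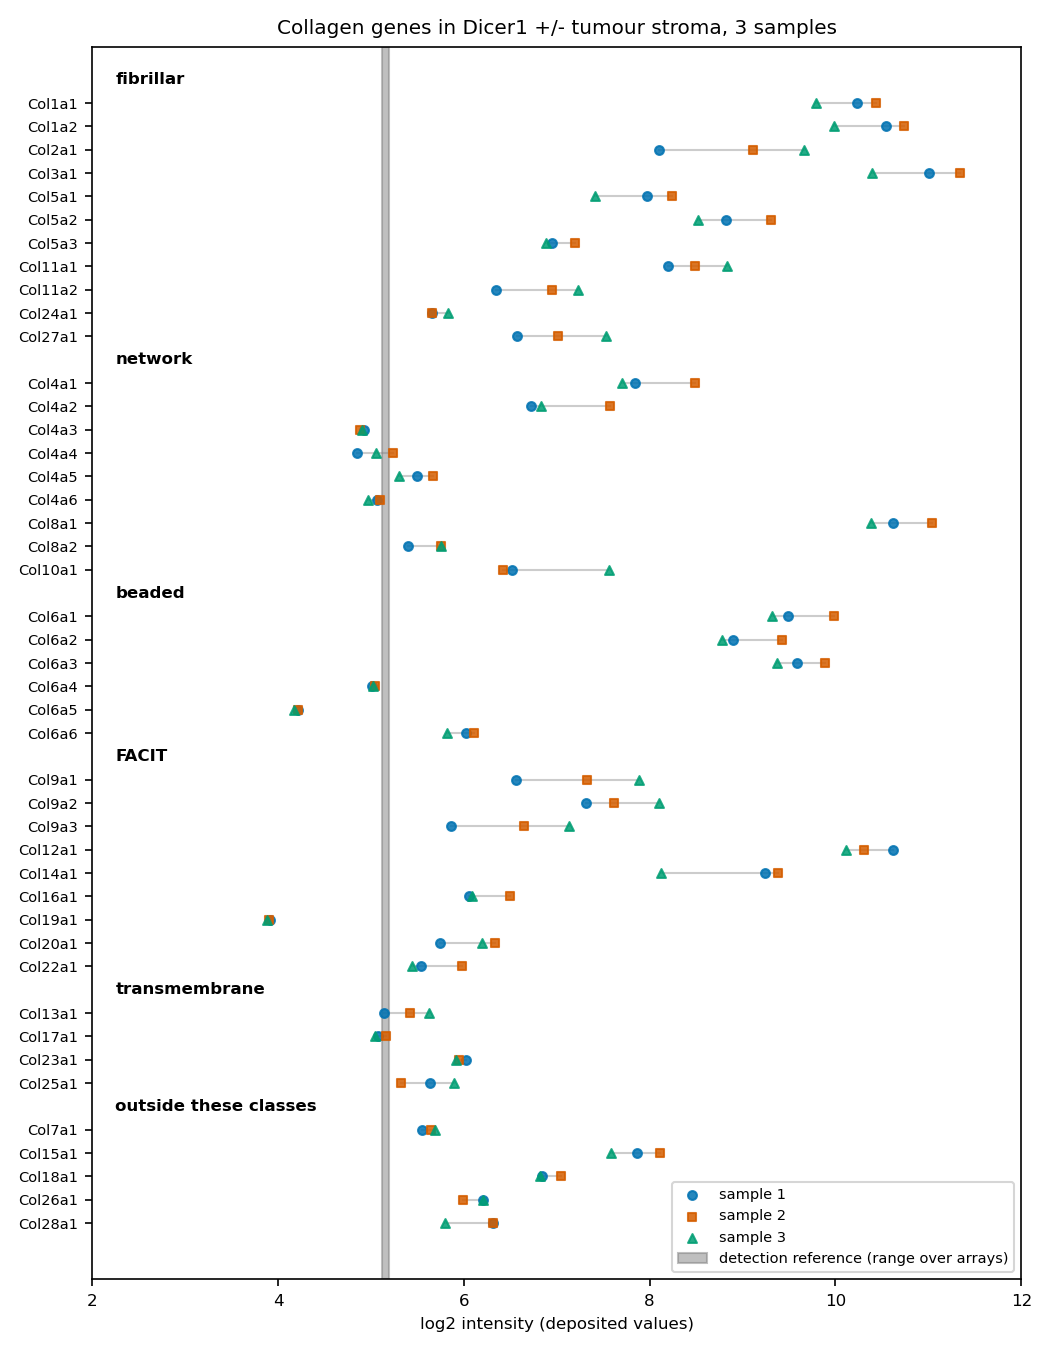
Log2 intensity (x axis) of each of the 44 collagen genes (y axis, by class) in samples 1, 2 and 3, with the grey band marking the detection reference over the 3 arrays. All 11 fibrillar genes lie right of the band in every sample, while Col4a3, Col4a6, Col6a4, Col6a5 and Col19a1 lie left of it.

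The samples differed in collagen expression by class and within class. On at least 1 array 39 collagen genes (88.6%) were detected, beside 66% of other genes. Among these 39 the median range over the 3 samples (highest minus lowest value) was 0.59, beside 0.31 over 13597 other genes that passed the same filter. A range above 1 was found for 5 of them (12.8%), Col2a1, Col9a1, Col9a3, Col10a1 and Col14a1, beside 5.68% of other genes. Without sample 1 this held for Col10a1 and Col14a1 alone, and without sample 3 for Col2a1 alone. The median range was 0.51 without sample 1 and 0.30 without sample 2 or without sample 3. A gene's range over 2 samples cannot exceed its range over 3, and other genes were not recomputed over 2 samples. These values therefore cannot be set against the 0.31 of other genes. Sample 2 was the highest in 22 collagen genes (56.4%, beside 32.4% of other genes) and sample 3 the lowest in 21 (53.8%, beside 33.2%). Sample 3 was the highest in 12 (30.8%, beside 32.8%) and sample 1 the lowest in 14 (35.9%, beside 31.2%). Sample 1 was the highest in 2 (5.13%, beside 28.9%), and sample 2 the lowest in 3 (7.69%, beside 29.4%). A tie for the place was counted for no sample. The median deviation of a collagen gene from its own mean was -0.06 in sample 1, 0.17 in sample 2 and -0.12 in sample 3, and over all other genes it lay between -0.0069 and 0. The span of the 3 medians was 0.29, and 0.06 without sample 2.

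**Figure D2:**
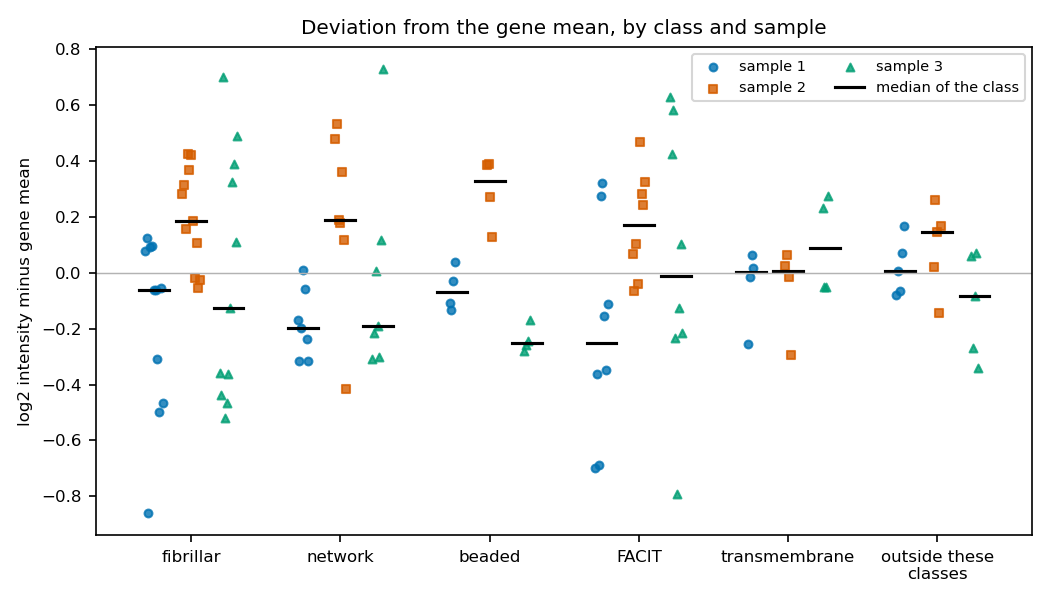
Deviation of each collagen gene from its mean over the 3 samples (y axis, log2) by class (x axis), for the 39 genes detected on at least 1 array, with a black bar at the class median in each sample. Fibrillar and FACIT genes of sample 3 lie both well above and well below 0, while all 4 beaded genes lie above 0 in sample 2 and below 0 in sample 3.

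The fibrillar class held both directions at once. Its chains of types I, III and V peaked in sample 2 and had their lowest value in sample 3, whereas those of types II, XI and XXVII peaked in sample 3 and had their lowest value in sample 1. Start regions of members of each kind are printed here because the class parts along these lines. They are the RefSeq windows of build GRCm38.p6 that run from 250 bases before to 50 bases after an annotated start, with capitals where a TATA box, a CCAAT box, a GC box or a SOX-type motif occurs on either strand, in the letters given with their counts. The windows lie at chr6:4505368-4505667 (Col1a2), chr1:45311288-45311587 (Col3a1), chr3:114030290-114030589 (Col11a1) and chr17:34038888-34039187 (Col11a2), all on the + strand.
Col1a2: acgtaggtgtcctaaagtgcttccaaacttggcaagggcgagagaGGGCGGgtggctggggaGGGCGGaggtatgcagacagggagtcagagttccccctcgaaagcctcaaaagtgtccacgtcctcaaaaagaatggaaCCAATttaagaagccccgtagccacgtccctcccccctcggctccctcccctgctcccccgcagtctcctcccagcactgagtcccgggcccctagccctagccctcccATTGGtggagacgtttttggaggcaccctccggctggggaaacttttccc
Col3a1: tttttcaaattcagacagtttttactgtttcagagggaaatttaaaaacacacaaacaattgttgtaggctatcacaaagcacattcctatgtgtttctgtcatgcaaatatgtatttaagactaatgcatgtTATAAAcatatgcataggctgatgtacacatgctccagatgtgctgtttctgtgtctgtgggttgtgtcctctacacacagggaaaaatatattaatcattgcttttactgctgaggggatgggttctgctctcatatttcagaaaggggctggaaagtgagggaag
Col11a1: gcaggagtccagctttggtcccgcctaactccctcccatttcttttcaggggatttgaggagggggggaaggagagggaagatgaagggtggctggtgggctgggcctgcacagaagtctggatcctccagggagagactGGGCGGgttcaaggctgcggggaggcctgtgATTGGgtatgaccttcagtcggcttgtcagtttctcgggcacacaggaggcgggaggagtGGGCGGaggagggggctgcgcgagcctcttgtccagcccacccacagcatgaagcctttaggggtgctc
Col11a2: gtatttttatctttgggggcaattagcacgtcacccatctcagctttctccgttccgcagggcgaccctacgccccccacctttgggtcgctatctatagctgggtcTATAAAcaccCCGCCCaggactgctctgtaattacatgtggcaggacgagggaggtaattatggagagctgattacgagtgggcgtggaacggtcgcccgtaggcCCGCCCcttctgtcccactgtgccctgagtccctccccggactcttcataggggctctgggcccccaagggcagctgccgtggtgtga

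A window was at hand for 35 of the 44 genes, 38 windows in all, and for neither Col1a1 nor Col2a1. The TATA box (letters TATAAA) stood in 5 of 38 collagen windows, beside 13.6% of all 32851 windows, and the printed ones of Col3a1 and Col11a2 are among these 5. The CCAAT box occurred in 13 of 38, beside 37.4% of all windows, and the GC box (letters GGGCGG) in 23 of 38, beside 35.7%. The SOX-type motif ACAATG, of the kind SOX proteins bind, occurred in 1 of 38, that of Col28a1, beside 12.6% of all windows. The CCAAT box and the SOX-type motif have 4 letters in common. Among the windows printed above GC boxes stand in Col1a2, Col11a1 and Col11a2. In 7 windows of the cartilage collagens grouped below, the TATA box, CCAAT box, GC box and SOX-type motif stood in 2, 2, 4 and 0. For 8 windows of types I, III and V and Col6a1 to Col6a3 the counts were 1, 2, 5 and 0. Both groups were set after the values had been seen. Such matches describe these letters only.

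Types I, III and V make up the fibres of soft tissue. Col1a1, the main chain of type I, was at 10.23, 10.43 and 9.79 in samples 1, 2 and 3, with a mean of 10.15 ± 0.33 (SD, n = 3). Its partner Col1a2 was at 10.54, 10.73 and 9.98. Col3a1, whose type III trimer of like chains is found with type I in distensible tissue, was at 11.00, 11.34 and 10.39. In all of these sample 3 was the low one, and the span between samples 2 and 3 was 1.56-fold for Col1a1, 1.69-fold for Col1a2 and 1.92-fold for Col3a1. Type V starts and limits the width of type I fibrils, and its chain Col5a1 was at 7.97, 8.24 and 7.41. Col5a2 was at 8.82, 9.30 and 8.52, and Col5a3, the least widely used chain, at 6.95, 7.19 and 6.88, with a range of only 0.31. The order of samples was therefore the same in these 6 genes, while samples 1 and 3 of Col5a3 were 0.06 apart. The dimmer probe set of Col5a1 gave 6.24, 6.23 and 6.02, again with sample 3 lowest but with samples 1 and 2 in the other order and a range of 0.22 in place of 0.83.

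Cartilage fibrils are built from types II, IX and XI. Col2a1, the chain of type II, was at 8.10, 9.11 and 9.66 in samples 1, 2 and 3, with a mean of 8.96 ± 0.79 (SD, n = 3). This range of 1.56, or 2.95-fold, was the largest of the 44 genes. Col11a1 was at 8.20, 8.49 and 8.83, and Col11a2 at 6.34, 6.95 and 7.23, both chains of the type XI trimer that lies within type II fibrils. Col27a1, a fibrillar chain known from growing cartilage, was at 6.58, 7.02 and 7.53. Sample 1 was the lowest and sample 3 the highest in all of them, with folds between 1.55 for Col11a1 and 2.95 for Col2a1. Col24a1, a fibrillar chain described in bone, was equal in samples 1 and 2 at 5.66 and was at 5.83 in sample 3.

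FACIT collagens were mixed. The type IX chains, which decorate type II fibrils, followed Col2a1: Col9a1 was at 6.56, 7.33 and 7.89, Col9a2 at 7.31, 7.61 and 8.10, and Col9a3 at 5.86, 6.65 and 7.13 in samples 1, 2 and 3. Sample 3 was 2.51-fold above sample 1 for Col9a1, 1.73-fold for Col9a2 and 2.41-fold for Col9a3. Col14a1, a FACIT chain of type I fibrils in skin and tendon, went the other way, at 9.24, 9.39 and 8.13, with a mean of 8.92 ± 0.69 (SD, n = 3). Samples 1 and 2 of Col14a1 were 0.15 apart, and sample 3 lay 1.11 below sample 1. Col12a1, its close relative, was at 10.62, 10.31 and 10.11, and with Col23a1 it was 1 of 2 genes highest in sample 1 among the 39 detected on at least 1 array. Col16a1 was at 6.06, 6.50 and 6.09, Col20a1 at 5.74, 6.33 and 6.19, and Col22a1, known from tissue junctions such as that of muscle and tendon, at 5.54, 5.98 and 5.44. These 3 were highest in sample 2.

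The 8 genes Col2a1, Col9a1, Col9a2, Col9a3, Col10a1, Col11a1, Col11a2 and Col27a1 were set together as cartilage collagens after their values had been seen, and the counts that follow describe them and support nothing. All 8 were highest in sample 3, and 7 were lowest in sample 1. Their median deviation was -0.48 in sample 1, 0.03 in sample 2 and 0.54 in sample 3, a 2.03-fold span. On the log2 scale this is 1.02, and it was 0.50 without sample 1 and 0.52 without sample 3. The exception, Col10a1, the chain of the network of hypertrophic cartilage, was at 6.52, 6.42 and 7.57, so that samples 1 and 2 lay 0.10 apart. None of the 8 was highest in sample 2 or lowest in sample 3, so taking them out left the earlier counts of 22 and 21 unchanged. Over the other 31 collagen genes detected on at least 1 array, these counts are therefore raised as shares by the removal itself. Among other genes the shares were 32.4% and 33.2%. The 9 chains of types I, III, V and Col6a1 to Col6a3, also set together afterwards, had medians of -0.03, 0.37 and -0.36, a 1.66-fold span. This is 0.73 on the log2 scale, and it was 0.30 without sample 2 or without sample 3. Without the 4 cartilage members the fibrillar class spanned 0.68 on the log2 scale, against 0.31 with them.

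Marker lists of several cell types differed between the samples as well. Of 10 chondrocyte markers, none a collagen, 8 were detected on all arrays (beside 60.5% of other genes) and 2, Matn1 and Matn4, on none. The detected ones had median deviations of -0.82, 0.06 and 0.76 in samples 1, 2 and 3, and all 8 were lowest in sample 1 (beside 31.2% of other genes) while 6 were highest in sample 3 (beside 32.8%). Acan, the large cartilage proteoglycan, was at 8.10, 9.07 and 9.94, and Sox9, a transcription factor of cartilage, at 7.58, 8.10 and 8.35. The other two peaked in sample 2, Comp, a matrix protein of cartilage and tendon, at 10.02, 10.53 and 10.32 and Sox5, a partner of Sox9, at 5.53, 6.06 and 5.87. The summed intensity of the 10 chondrocyte markers on the linear scale was 2281, 3713 and 4988, a sum that the brightest probe sets weigh most in. Fibroblast markers had median deviations of 0.08, 0.42 and -0.58, and all 9 measured were lowest in sample 3 (beside 33.2% of other genes), with a summed linear intensity of 13025, 17593 and 8510. Among them Pdgfra, a growth factor receptor, was at 8.55, 9.24 and 7.82. Pericyte and smooth muscle markers were highest in sample 2 in 8 of 8 (beside 32.4%), with medians of -0.08, 0.61 and -0.55. Tendon markers, with medians of 0.17, 0.39 and -0.62, were also low in sample 3. Osteoblast markers, at -0.42, 0.03 and 0.52, and endothelial markers, at -0.18, -0.18 and 0.42, had their highest median there. Of 5 osteoblast markers detected on at least 1 array 4 were highest in sample 3 (beside 32.8%), among them Bglap with a range of only 0.097. The exception was Dmp1, at 5.25, 5.48 and 5.24, which was lowest in sample 3. The part of these cell types in the collagen values was not tested, and in bulk RNA fewer cells of a type and less RNA per cell cannot be told apart.

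**Figure D3:**
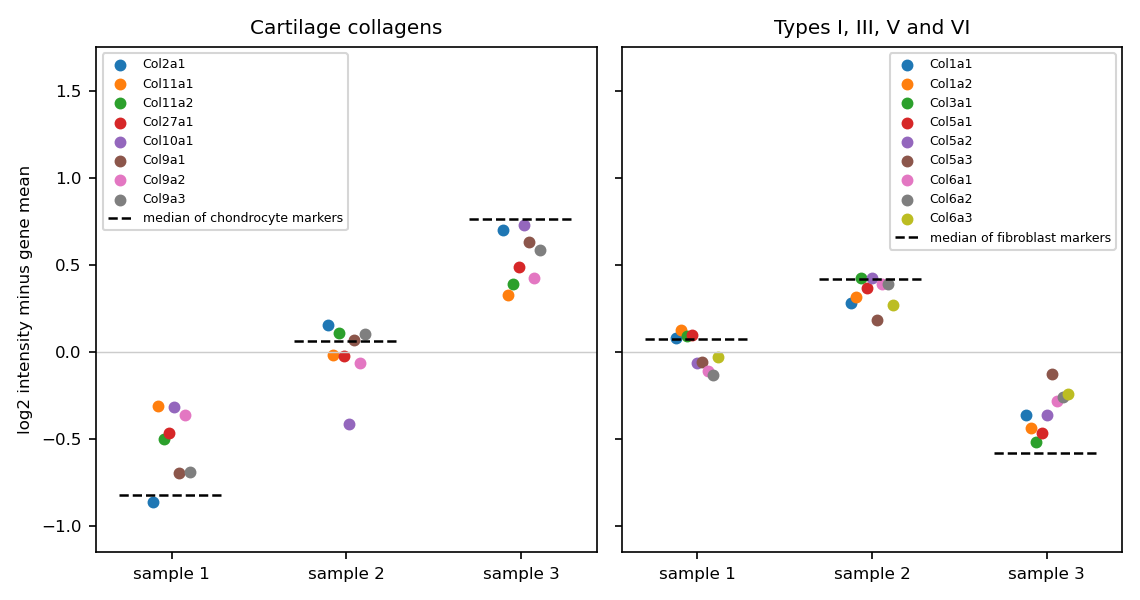
Deviation from the gene mean (y axis, log2) in samples 1, 2 and 3 (x axis) for the 8 cartilage collagens (left) and the 9 chains of types I, III, V and VI (right), points being spread sideways only to be seen, with dashed lines at the median of chondrocyte or fibroblast markers. The cartilage chains have a median of 0.54 in sample 3 and the other chains one of -0.36 there.

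Network collagens include the chains of basement membrane. Col4a1 and Col4a2 form the common type IV trimer and start head to head, and their windows share 78 bases at chr8:11312777-11312854, with annotated starts 21 bases apart. The annotated first bases of the genes overlap there, so the shared stretch is not a gap between the genes. Both chains carried sample 2 at the top, as did 22 of the 39 collagen genes detected on at least 1 array (56.4%), so this is not particular to the pair. The window of Col4a2, chr8:11312555-11312854 on the + strand, is printed with capitals marking the bases shared with the window of Col4a1. Capitals do not mark boxes there, although this window holds a CCAAT box and a GC box.
Col4a2: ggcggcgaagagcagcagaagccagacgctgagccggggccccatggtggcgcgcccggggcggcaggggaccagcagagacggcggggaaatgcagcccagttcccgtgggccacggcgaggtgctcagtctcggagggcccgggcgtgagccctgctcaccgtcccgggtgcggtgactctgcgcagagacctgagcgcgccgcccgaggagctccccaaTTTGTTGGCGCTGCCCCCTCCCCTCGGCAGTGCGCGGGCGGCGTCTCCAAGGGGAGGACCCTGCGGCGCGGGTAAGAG

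Col4a1 was at 7.84, 8.49 and 7.70 in samples 1, 2 and 3, and Col4a2 at 6.73, 7.58 and 6.83. Sample 2 was the highest in both, by 0.65 over sample 1 for Col4a1 and 0.85 for Col4a2. The other two samples changed places, with sample 3 lowest for Col4a1 and sample 1 lowest for Col4a2, by 0.14 and 0.10. The neighbouring pair Col4a3 and Col4a4, chains of kidney, lung and inner ear membranes, stood near or below the reference, with Col4a4 at 4.85, 5.24 and 5.06 and above it in sample 2 alone. Of the X-linked pair, whose annotated starts are 1343 bases apart, Col4a5 was at 5.50, 5.67 and 5.30 and Col4a6 was not detected. Col8a1, a short-chain network collagen of vessels and the eye, was at 10.62, 11.04 and 10.38, a 1.58-fold range. Col8a2, its partner, was equal in samples 2 and 3 at 5.76 and was at 5.40 in sample 1. The class median spanned 0.38, and 0.02 without sample 2.

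The detected chains of beaded collagen VI shared their order of samples, with ranges between 0.30 for Col6a6 and 0.67 for Col6a1. Its common trimer joins the products of Col6a1, Col6a2 and Col6a3. Col6a1 was at 9.49, 9.99 and 9.32, Col6a2, its neighbour on chromosome 10, at 8.90, 9.42 and 8.78, and Col6a3 at 9.59, 9.89 and 9.37 in samples 1, 2 and 3. All of them, and Col6a6 at 6.02, 6.11 and 5.82, had their highest value in sample 2 and their lowest in sample 3. The median deviations of the 4 detected chains were -0.07, 0.33 and -0.25, and the folds between samples 2 and 3 were 1.59 for Col6a1, 1.57 for Col6a2, 1.43 for Col6a3 and 1.23 for Col6a6. Without sample 2 the span of the class was 0.19, against 0.58 with it. Col6a4 and Col6a5, which lie beside Col6a6 on chromosome 9, were not detected, with ranges of 0.04 each.

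The class median of the transmembrane collagens spanned 0.09, the smallest of the 5 classes, but without sample 2 it spanned 0.26, the largest of them. Col13a1, a chain of cell adhesion sites, was at 5.14, 5.42 and 5.63, and Col25a1, known from neurons and developing muscle innervation, at 5.63, 5.32 and 5.89. Col23a1 was at 6.03, 5.95 and 5.91, and Col17a1 at 5.08, 5.16 and 5.04. The widest transmembrane range was 0.57, that of Col25a1. Of the genes outside the classes, the multiplexin Col15a1, which sits at basement membranes, was at 7.86, 8.11 and 7.58, and Col18a1, the source of endostatin, at 6.84, 7.05 and 6.82. Both peaked in sample 2 and were lowest in sample 3. Col7a1, which makes the anchoring fibrils of skin, was at 5.55, 5.65 and 5.69. Col28a1, described around Schwann cells, was equal in samples 1 and 2 at 6.31 and was at 5.80 in sample 3, and Col26a1 was equal in samples 1 and 3 at 6.21 and was at 5.99 in sample 2. Exactly equal values on 2 or more arrays were found in 4 of the 39 genes (10.3%), beside 10.8% of other genes.

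Genes that modify, process, bind and degrade collagen were then read in the same samples. Of 20 measured genes of chain assembly and modification 19 were detected on all arrays, beside 60.5% of other genes. The exception was Mia2, a paralogue of the collagen export receptor Mia3. Sample 2 had the highest value in 18 of these 19 and sample 3 the lowest in 15, beside 32.4% and 33.2% of other genes, with medians of -0.03, 0.25 and -0.23. The subunits of prolyl 4-hydroxylase, which stabilises the helix, were P4ha1 at 8.02, 8.06 and 7.78, P4ha2 at 6.47, 6.76 and 6.44, P4ha3 at 7.31, 7.35 and 6.66, and P4hb at 10.11, 10.34 and 10.18. The only gene of this list with a range above 1 was Colgalt2, a collagen galactosyltransferase, at 5.26, 6.39 and 6.44. It was the one detected gene of the list highest in sample 3.

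Of 11 measured genes of procollagen processing and cross-linking 10 were detected on all arrays (beside 60.5% of other genes), all but Tll2. Bmp1, which trims the C-terminal propeptides, was at 8.14, 8.43 and 7.50, its relative Tll1 at 5.21, 5.45 and 5.32, and its enhancer Pcolce at 10.14, 10.45 and 9.57. Medians of the list were -0.03, 0.36 and -0.32. A range above 1 was found for Lox at 9.34, 9.75 and 8.60, Loxl1 at 9.46, 10.15 and 8.78 and Loxl4 at 5.99, 6.68 and 7.16, all of the lysyl oxidase family that cross-links collagen and elastin. Lox and Loxl1 thus had the sample order of types I and III, and Loxl4 that of type II.

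Collagen receptors were detected on all arrays in 10 of 12 measured (beside 60.5% of other genes), all but Gp6 of platelets and Oscar of osteoclasts. All 10 were highest in sample 2, beside 32.4% of other genes. The fibrillar collagen receptor Ddr2 was at 7.75, 8.52 and 7.24, a range of 1.28, and its relative Ddr1 at 6.63, 6.97 and 6.86. Itga11, an integrin chain of fibroblasts that binds type I collagen, was at 7.51, 7.74 and 6.69, a range of 1.05, while Itga1 was at 7.26, 7.98 and 7.48 and Itga2 at 6.02, 6.72 and 6.03. All 7 genes of collagen breakdown were detected on all arrays (beside 60.5%), and 5 were highest in sample 2 (beside the same 32.4%). Mmp2, a gelatinase of stromal cells, was at 10.94, 11.14 and 10.57, and Mmp13, a collagenase, at 6.89, 7.34 and 6.22. The exceptions were Mmp8, the collagenase of neutrophils, at 10.61, 11.09 and 11.33, and Mmp9, a gelatinase that neutrophils also carry, at 9.02, 9.61 and 10.07, both highest in sample 3.

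**Figure D4:**
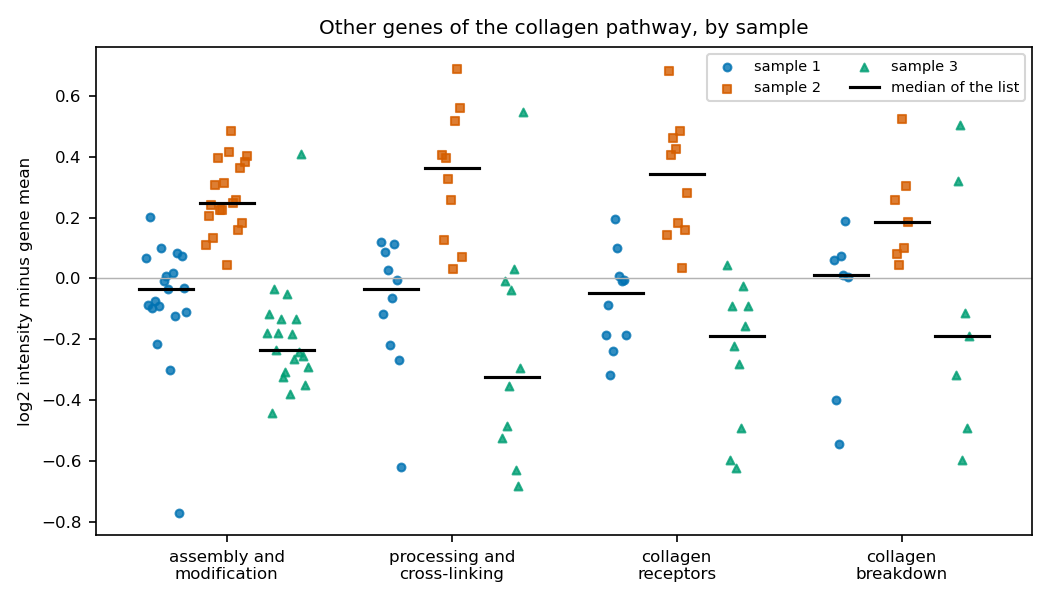
Deviation from the gene mean (y axis, log2) of detected genes in the 4 lists of the collagen pathway (x axis) in samples 1, 2 and 3, with a black bar at each list's median. In every list the median of sample 2 is the highest and that of sample 3 the lowest, at 0.25 and -0.23 for assembly and modification.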

How the data were processed

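RNA of PECAM1-negative, tdTomato-negative cells from Dicer1 +/- tumours was measured on 3 arrays, 1 per sample. The authors deposited log2 intensities, 1 per probe set and array. Partek is named per the submitters' processing notes. Background correction, normalization and summarization were not given in the sources used here, and the log2 scale was read from the values, which ran from 2.00 to 13.18. GEO's platform annotation gave exactly 1 symbol for 23094 of 31873 probe sets, more than that for 1764 and no symbol for the other 7015, and all 44 collagen genes matched RefSeq (GRCm38.p6). A gene was represented by its probe set with the highest mean. Detection used the 95th percentile of receptor probe sets. Range, deviation from the gene mean and list medians over genes detected on at least 1 array were computed with Python 3.11.15 and pandas 2.3.3 and tested on simulated data. With 1 group of 3 samples no test was run, and the number of arrays limits the precision. Every collagen gene could be named. Of the pathway lists the first 4 measured genes, those not detected and those with a range above 1 were named, and marker genes beyond these were chosen after their values were seen. The members and lists were chosen with earlier results of these data known. Alternatives changed normalization, probe set summary, detection reference, ties, filter, size threshold and samples.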

Additional observations from a re-analysis of the deposited data

How the results depend on the processing

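Centring each array on its median, quantile normalization and the mean of a gene's probe sets left the count of detected collagen genes at 36, that of ranges above 1 at 5 and that of genes highest in sample 2 between 22 and 24. Other genes were not counted under any of the alternatives, so no count in this section has a share of other genes beside it. With the 99th percentile as detection reference 21 of the 44 collagen genes were detected on all arrays. Of those that passed this reference on at least 1 array, 1 was highest in sample 1, 8 were lowest in sample 1 and 1 lowest in sample 2. The spans under that reference, which leaves out dim members, were 0.51 for all collagens, 0.47 for fibrillar, 0.68 for network and 0.79 for FACIT genes. With no filter 4 genes were highest in sample 1. A range above log2 of 1.5 was found for 20 of the 39 genes detected on at least 1 array, and the share of other genes at that threshold was not computed. Without tied genes the fibrillar span was 0.47, and without the cartilage members, chosen after seeing the data, 0.68. The transmembrane span, over 4 dim genes, was 0.24 with the array median as reference, 0.27 for genes detected on all arrays and 0.16 with the mean of the members. Leaving out each sample in turn gave 36 to 37 genes detected on the arrays that remained, 1 to 5 ranges above 1 and a median range of 0.30 to 0.51. Spans then ran from 0.064 to 0.29 for all collagens, 0.064 to 0.31 for fibrillar, 0.020 to 0.38 for network, 0.19 to 0.58 for beaded, 0.17 to 0.44 for FACIT and 6.77e-06 to 0.26 for transmembrane genes. The cause of these shifts was not tested, apart from the arithmetic of the 6.77e-06, which is given with Col17a1 and Col23a1 below. Detection near the reference is limited by background signal: of the 36 genes, 15 lay below the stricter reference on at least 1 array. No paired analysis was possible because there was 1 group only.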

Other observations

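Further values of the marker lists follow. Of 5 tendon markers all were detected on all arrays (beside 60.5% of other genes) and 4 were lowest in sample 3 (beside 33.2%). Tnmd, a membrane protein of tendon cells, was at 8.72, 9.05 and 7.89. Of 6 measured osteoblast markers 4 were detected on all arrays (beside 60.5%) and 5 on at least 1 (beside 66%). Ibsp, a mineralised matrix protein, was at 8.64, 9.55 and 10.19, and Phex was not detected. Endothelial markers were highest in sample 3 in 7 of 9 (beside 32.8% of other genes) and in sample 2 in the other 2. Schwann cell medians were -0.16, 0.14 and -0.04 in samples 1, 2 and 3. On all arrays 4 of 5 measured markers were detected, beside 60.5% of other genes. Epithelial markers had medians of -0.04, -0.09 and 0.05, with 4 of 6 detected on all arrays, near the 60.5% of other genes. Muscle medians were 0.03, -0.22 and 0.14, and leukocyte medians 0.26, -0.09 and -0.02. These medians leave out wide ranges of single genes. A range above 1 was found for 2 of 7 muscle and 2 of 7 leukocyte markers, beside 5.68% of other genes. In muscle they were Tnnt2 at 7.86, 7.32 and 8.80 and Acta1 at 8.27, 8.01 and 9.39. The leukocyte ones were Ms4a1 at 9.05, 6.34 and 6.45 and Cd3e at 8.59, 6.49 and 8.04.

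Col17a1 and Col23a1, on different chromosomes, had ranges that were equal to 4 decimals at 0.1175, Col17a1 with sample 2 at the top and Col23a1 with sample 1, and both with sample 3 lowest. In samples 1, 2 and 3 the deviations were -0.013, 0.065 and -0.052 for Col17a1 and 0.065, -0.013 and -0.052 for Col23a1. Without sample 3 these genes are the middle ones of the transmembrane class and cancel in its median, hence the span of 6.77e-06. The cause of the match between the genes was not tested.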
